A study of Homo sapiens with 6 samples.

Results

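The 32 genes described here encode most enzymes of cholesterol synthesis, the proteins that control the SREBP transcription factors, and proteins that bind, move or esterify sterols. They were taken as a named list from the 21676 gene symbols of a deposited count table, and all 32 were present and passed the low-count filter. RNA was sequenced from the 83 cell line, described by its submitters as a SACC cell, an abbreviation in common use for adenoid cystic carcinoma of the salivary gland. There were 3 control libraries and 3 libraries of cells with overexpression of ApoD, a secreted lipocalin that carries small lipids. No source used here names the vector, what the control cells received, or whether the cells were a clone or a pool. Nor do the labels say whether separate cultures were used, so each p-value rests on a spread among libraries that may be technical.

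Cells make cholesterol from acetyl-CoA through mevalonate, prenyl diphosphates, squalene and lanosterol, and epithelial tumour cells both make sterols and take them up. SREBP precursors sit in the endoplasmic reticulum bound to the escort SCAP. When sterols are plentiful INSIG proteins hold SCAP there, and when sterols are scarce SCAP carries SREBP to the Golgi, where a pair of proteases releases the active factor.

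Library totals ran from 37542568 to 40416964 counts. APOD had 2 to 9 counts in the controls and 528 to 628 with ApoD overexpression. Of 14 epithelial and salivary carcinoma markers 12 were analysed here, with a summed level of 3653 to 4697 CPM (counts per 1000000 of the scaled library total) in controls and 4060 to 4556 with ApoD overexpression. That sum was carried by keratins such as KRT8. Of the 12 markers 6 fell and 1 rose, beside 24.6% and 24.2% of all tested genes. The adhesion protein CDH1 stood at 41.0%, the basal cell factor TP63 at 48.4%, KRT14 at 29.8% and KRT19 at 18.1% of control. EPCAM and KRT17 fell less, to 81.2% and 82.6%, and KRT7 rose to 140%. The tumour-associated factor MYB was low, at 5.58 to 11.998 CPM over the 6 libraries. Among 7 fibroblast markers analysed here DCN had at most 1 count in a library, while the list summed to 27.1 to 32.7 CPM in controls and 9.996 to 13.8 with ApoD overexpression, mostly COL1A1. The 4 endothelial markers analysed here summed to 8.11 to 13.4 and 1.35 to 2.30 CPM, with PECAM1 the highest of them in each library, and the 6 immune markers analysed here to 15.7 to 32.9 and 36.7 to 39.1 CPM. The immune sum was nearly all CD68, a lysosomal protein of macrophages and other cells, which rose (620 to 1353 and 1369 to 1449 counts, edgeR adjusted p = 0.0384), while the leukocyte marker PTPRC had 0 to 12 and 0 counts. Genes with a count numbered 18591 to 18685 in controls and 17378 to 17789 with ApoD overexpression, and mitochondrial genes took 4.10% to 4.50% and 3.19% to 3.54% of the counts. The part of these differences in the results below was not tested. In bulk RNA a lower level cannot be told apart from fewer cells that make the transcript.

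With ApoD overexpression 15 of the 32 sterol genes fell, 3 rose and 14 did not pass the test. The falls ran from SQLE at 79.6% of its control level to TM7SF2 at 25.3%, and the rises from LBR at 146% to TMEM97 at 193%. Among all 14629 tested genes 24.6% fell, 24.2% rose and 48.8% changed in either direction (edgeR, adjusted p under 0.05). The sterol genes fell in 46.9% and rose in 9.38%. Their median log2 fold change was −0.25, and that of all tested genes −0.02. Scaled by library totals alone, the medians were −0.37 and −0.13, 17 sterol genes fell and 3 rose, and of all genes 4435 fell and 2580 rose in place of 3601 and 3539. In 15 of the 32 every ApoD overexpression library lay below every control, and in 6 above, against 29.7% and 29% of all tested genes (58.7% in either direction). Of the 18 changes 8 falls and 2 rises were over 1.5-fold, and only the falls of TM7SF2 and INSIG1 over 2-fold.

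**Figure D1:**
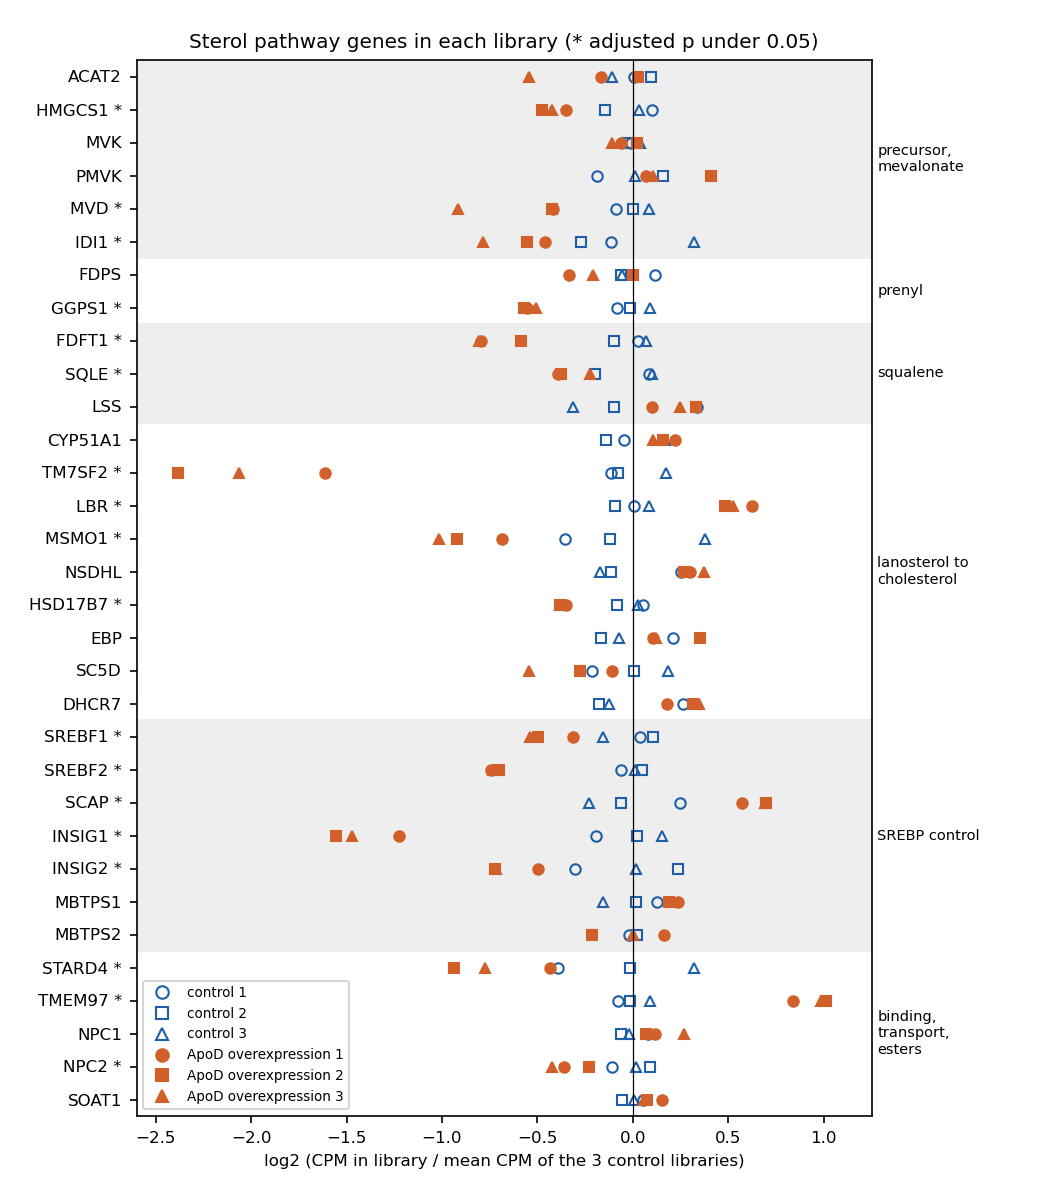
Each point is 1 library, as log2 of its CPM over the mean of the 3 control libraries, with genes on the vertical axis grouped by role. The filled ApoD overexpression points lie left of all open control points for the 15 genes that fell, and right of them for LBR, SCAP and TMEM97.

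Among the 7 genes of SREBP control 4 fell, 1 rose and 2 did not pass, beside 24.6% lower and 24.2% higher among all genes. Both precursors and both INSIG genes fell, SCAP rose, and neither protease passed the test. INSIG1, the retention protein whose own gene is an SREBP target, had 108, 125 and 137 CPM in the controls and 53.0, 42.1 and 44.5 CPM with ApoD overexpression. All ApoD overexpression libraries lay far below the controls, with means of 124 ± 14.7 and 46.5 ± 5.71 CPM (SD, n = 3). INSIG1 had a log2 fold change of −1.41 ± 0.12 (SE, edgeR adjusted p = 4.58e-06), which is 37.6% of the control level. INSIG2, the related retention protein, had 23.0, 33.4 and 28.7 CPM in the controls against 20.1, 17.2 and 17.3 CPM. Control replicate 1 was the lowest control and lay next to ApoD overexpression replicate 1, without overlap. INSIG2 had a log2 fold change of −0.64 ± 0.14 (edgeR adjusted p = 0.00277). Per gene length (FPKM, which the authors scaled to library totals) INSIG1 stood at 5.28 ± 0.69 times INSIG2 in controls and at 3.05 ± 0.114 times with ApoD overexpression (SD, n = 3), and these ratios did not overlap between the groups. No test of that ratio was run.

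SREBF2, which encodes the precursor most tied to cholesterol genes, had 230, 248 and 242 CPM in the controls and 143, 148 and 144 CPM with ApoD overexpression. The libraries of each group stood close together and far from the other group. SREBF2 had a log2 fold change of −0.73 ± 0.08 (SE, edgeR adjusted p = 3.29e-05). SREBF1, whose products favour fatty acid genes, fell less, from 344, 360 and 300 CPM to 269, 237 and 230 CPM, with a log2 fold change of −0.45 ± 0.10 (edgeR adjusted p = 0.00299). Per gene length SREBF1 stood at 65.9 ± 4.94 FPKM and SREBF2 at 34.2 ± 1.75 FPKM in controls, a ratio of 1.93 ± 0.188, and at 2.34 ± 0.226 with ApoD overexpression (SD, n = 3). SREBF1 counts do not separate its transcript variants.

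SCAP, the sterol-sensing escort, had 89.3, 72.1 and 64.1 CPM in the controls and 112, 122 and 121 CPM with ApoD overexpression. Control replicate 1 was again the control nearest to the other group. SCAP had a log2 fold change of 0.65 ± 0.12 (SE, edgeR adjusted p = 0.000724). MBTPS1, the site-1 protease that makes the first cut, had 190, 176 and 156 CPM in controls and 205, 199 and 201 CPM with ApoD overexpression. These groups did not overlap, but the log2 fold change of 0.21 ± 0.09 did not pass (edgeR adjusted p = 0.0804). It passed without control replicate 1, at 0.28 (adjusted p = 0.0257). MBTPS2, the site-2 protease, had means of 48.8 ± 0.665 and 48.6 ± 6.28 CPM (SD, n = 3), with ApoD overexpression libraries on both sides of the controls.

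**Figure D2:**
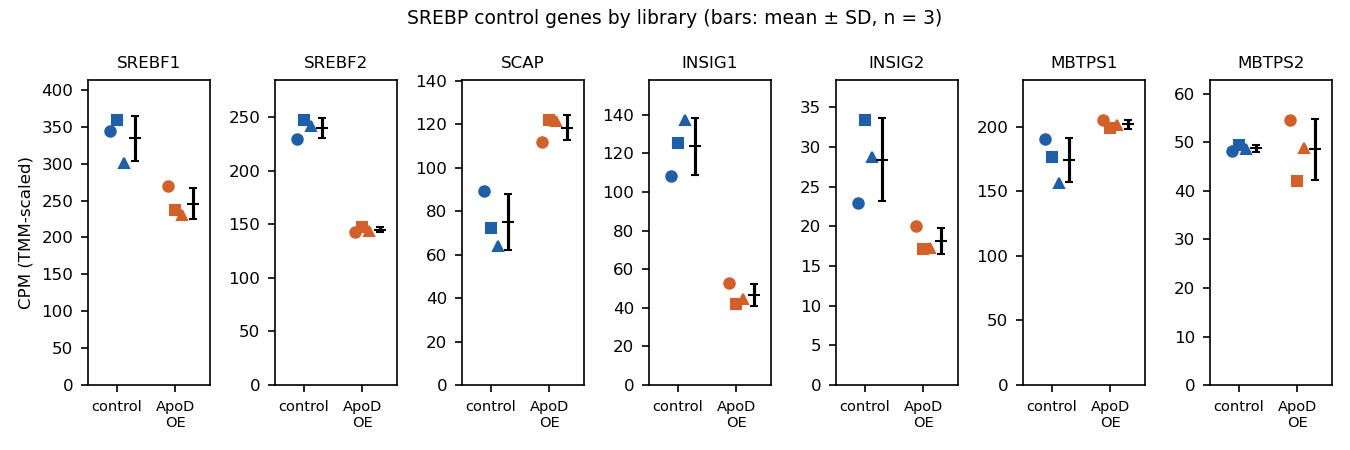
CPM of the 7 SREBP control genes in each library (vertical axes from 0, each with its own scale), with the mean ± SD of 3 libraries beside the points. SREBF1, SREBF2, INSIG1 and INSIG2 are lower in all ApoD overexpression libraries, SCAP and MBTPS1 higher, and MBTPS2 overlaps.

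Because both the SREBF2 and INSIG1 genes are known to respond to SREBP, the 250 bases before their starts are shown, as RefSeq gives them for GRCh38.p14. Both lie on the plus strand, INSIG1 at chr7:155297628-155297877 and SREBF2 at chr22:41832855-41833104. Capitals mark matches, on either strand, to TCACNCCAC, the core of the sterol regulatory element, to the palindrome TCACGTGA, which SREBP also binds, and to CCAAT, the box of the factor NF-Y that works beside SREBP.
INSIG1: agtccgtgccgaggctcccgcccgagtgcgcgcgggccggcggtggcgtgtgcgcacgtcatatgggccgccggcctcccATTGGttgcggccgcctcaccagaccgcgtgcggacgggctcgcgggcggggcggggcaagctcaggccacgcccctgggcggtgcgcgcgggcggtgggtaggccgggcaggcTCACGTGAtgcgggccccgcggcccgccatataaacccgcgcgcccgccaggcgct
SREBF2: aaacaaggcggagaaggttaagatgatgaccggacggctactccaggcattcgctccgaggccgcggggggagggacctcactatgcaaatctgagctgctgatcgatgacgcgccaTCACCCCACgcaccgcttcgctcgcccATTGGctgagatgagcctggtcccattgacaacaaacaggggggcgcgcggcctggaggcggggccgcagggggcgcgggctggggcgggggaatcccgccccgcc

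INSIG1 held the palindrome 56 to 49 bases before its start, and SREBF2 the core 133 to 125 bases before its start. RefSeq promoters matched 29 of the 32 genes by symbol, all but ACAT2, FDFT1 and SQLE. INSIG1 was the only one of the 29 with the palindrome, and SREBF2 the only one with the core. Among promoters of 11490 tested genes 1.6% held the palindrome and 0.792% the core. CCAAT stood in 18 of the 29 (62.1%) and in 34.8% of the promoters of tested genes. It stood in 9 of the 13 matched genes that fell, in 8 of the 13 that did not pass, and in TMEM97 alone among the 3 that rose. The GC box GGGCGG, searched the same way and not capitalised, stood in 24 of the 29 (82.8%) and in 66.2% of the promoters of tested genes. These shares take the first start that RefSeq lists for a gene; with any listed start, a choice added after seeing the data, CCAAT stood in 20 of the 29 (69.0%) and 41.1% of tested genes. A motif of 5 letters on 2 strands is met often, and a match is not a bound site.

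Among 11 genes for the steps up to lanosterol, counting the branch enzyme GGPS1, 6 fell and 0 rose. The shares among all genes were 24.6% and 24.2%. HMGCS1, which condenses acetoacetyl-CoA into HMG-CoA, had 115, 96.7 and 109 CPM in controls and 83.9, 76.7 and 79.6 CPM with ApoD overexpression. All controls lay above, and the log2 fold change was −0.42 ± 0.09 (SE, edgeR adjusted p = 0.00329). MVD, the decarboxylase that yields isopentenyl diphosphate, had 15.3, 16.3 and 17.3 CPM against 12.2, 12.2 and 8.64 CPM. ApoD overexpression replicate 3 was the lowest library. MVD had a log2 fold change of −0.57 ± 0.15 (edgeR adjusted p = 0.00823), and −0.40 without that library, where it no longer passed (adjusted p = 0.0531). IDI1, the isomerase of the next step, had 30.1, 27.004 and 40.6 CPM against 23.7, 22.2 and 18.9 CPM. Control replicate 3 stood above the other controls. IDI1 had a log2 fold change of −0.59 ± 0.15 (edgeR adjusted p = 0.00674), and −0.39 without control replicate 3 (adjusted p = 0.0342).

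The mevalonate kinase MVK stayed within 26.3 to 29.1 CPM in all 6 libraries, with a log2 fold change of −0.05 ± 0.10 (SE, edgeR adjusted p = 0.704). PMVK, the phosphomevalonate kinase, had means of 14.2 ± 1.67 and 16.3 ± 2.18 CPM (SD, n = 3), and the groups overlapped. ACAT2, the cytosolic thiolase that makes acetoacetyl-CoA, was counted at only 24 to 40 reads per library, 0.626 to 0.977 CPM. In GENCODE 29 transcripts of its neighbours on the other strand cover part of its exons (SOD2-OT1 33.9%), so how the authors assigned such reads bears on its count. The direction of ACAT2 turned from −0.21 to 0.36 when the abundance trend of each library was removed, and neither value passed.

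At the prenyl diphosphate branch GGPS1, which makes the geranylgeranyl chains that anchor small GTPases, had 41.1, 43.0 and 46.3 CPM in controls and 29.6, 29.3 and 30.6 CPM with ApoD overexpression. The groups were well apart, with a log2 fold change of −0.54 ± 0.10 (SE, edgeR adjusted p = 0.00068). Exons of TBCE on the same strand cover 37.3% of the GGPS1 exonic bases in GENCODE 29, and their shared reads cannot be told apart in a count per gene. FDPS, the farnesyl diphosphate synthase, was the most abundant enzyme per length, at 115 ± 6.75 FPKM in controls. In CPM it had 203, 179 and 180 against 148, 187 and 162, an overlap through ApoD overexpression replicate 2. Its log2 fold change of −0.17 ± 0.10 did not pass (edgeR adjusted p = 0.183). FDPS passed without ApoD overexpression replicate 2 (−0.28, adjusted p = 0.0337) and with library totals (−0.29, adjusted p = 0.0255), and moved towards 0 without ApoD overexpression replicate 1 (−0.07, adjusted p = 0.642) or control replicate 1 (−0.10, adjusted p = 0.481). FDPS has 8 named pseudogenes in GENCODE 29, which can share its reads, and RUSC1-AS1 on the other strand covers 18.6% of its exonic bases.

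FDFT1, the squalene synthase that commits farnesyl units to sterols, had 287, 263 and 295 CPM in controls and 162, 188 and 161 CPM with ApoD overexpression. No library came near the other group, and the log2 fold change was −0.73 ± 0.09 (SE, edgeR adjusted p = 8.3e-05). SQLE, the squalene epoxidase, had 70.9, 58.4 and 71.7 CPM against 51.1, 51.5 and 57.3 CPM. Its groups were separated by a narrow gap between control replicate 2 and ApoD overexpression replicate 3. The log2 fold change of SQLE was −0.33 ± 0.11 (edgeR adjusted p = 0.0217). It no longer passed without control replicate 1 (adjusted p = 0.0605), control replicate 3 (0.104) or ApoD overexpression replicate 1 (0.0866). LSS, which closes squalene epoxide into lanosterol, had 83.9, 62.1 and 53.4 CPM in controls and 71.3, 83.7 and 79.0 CPM with ApoD overexpression. Control replicate 1 lay as high as the ApoD overexpression libraries. The log2 fold change of LSS was 0.23 ± 0.14 (edgeR adjusted p = 0.206), and 0.44 without control replicate 1 (adjusted p = 0.00562) but 0.11 without control replicate 3 (adjusted p = 0.558).

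**Figure D3:**
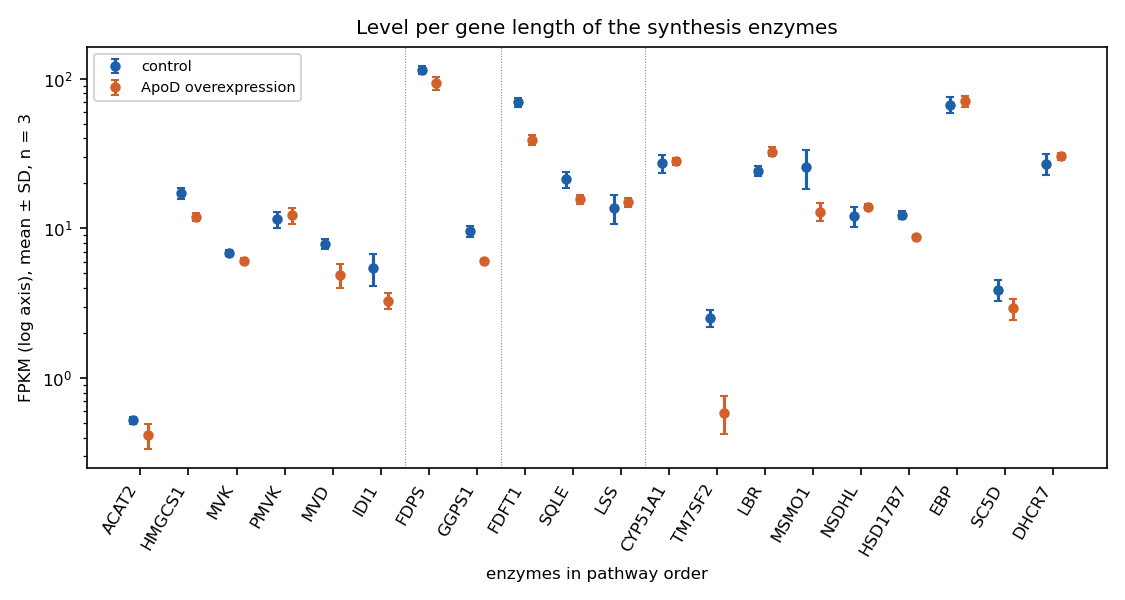
FPKM (log axis) of the 20 synthesis enzymes in pathway order, as mean ± SD of 3 control and 3 ApoD overexpression libraries, with dotted lines between the steps. FDPS, FDFT1 and EBP are the highest, and ACAT2 and TM7SF2 the lowest in both groups.

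Among the 9 enzymes from lanosterol to cholesterol 3 fell, 1 rose and 5 did not pass, beside 24.6% lower and 24.2% higher among all genes. TM7SF2 and LBR each encode a sterol C14-reductase, and LBR is also the lamin B receptor of the inner nuclear membrane. TM7SF2 had 3.52, 3.61 and 4.30 CPM in controls and 1.24, 0.732 and 0.913 CPM with ApoD overexpression, or 142 to 178 and 26 to 49 counts. TM7SF2 had a log2 fold change of −1.98 ± 0.28 (SE, edgeR adjusted p = 0.000147). LBR moved the other way, from 104, 97.3 and 110 CPM to 160, 145 and 150 CPM, with a log2 fold change of 0.55 ± 0.09 (edgeR adjusted p = 0.000407). Both genes had groups far apart. Per gene length LBR stood at 9.68 ± 0.708 times TM7SF2 in controls and at 57.8 ± 12.2 times with ApoD overexpression (SD, n = 3). By FPKM LBR was the higher of the pair in all 6 libraries.

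MSMO1, the C4-methylsterol oxidase, had 46.3, 54.6 and 77.1 CPM in controls and 36.9, 31.3 and 29.4 CPM with ApoD overexpression. The controls were spread widely, with replicate 3 highest and replicate 1 lowest. The log2 fold change was −0.87 ± 0.17 (SE, edgeR adjusted p = 0.0011). MSMO1 had the most CCAAT matches on 1 strand or the other among the 13 genes that fell and had a matched promoter. MVK and NSDHL, which did not pass the test, had more than MSMO1. The 250 bases of MSMO1 are shown for its place among the genes that fell (chr4:165327419-165327668, plus strand, GRCh38.p14, RefSeq, matches in capitals).
MSMO1: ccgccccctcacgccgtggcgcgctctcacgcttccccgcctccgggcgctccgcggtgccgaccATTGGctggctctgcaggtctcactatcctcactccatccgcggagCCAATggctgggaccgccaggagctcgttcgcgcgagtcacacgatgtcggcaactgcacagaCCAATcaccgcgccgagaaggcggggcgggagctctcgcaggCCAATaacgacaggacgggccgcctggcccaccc

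HSD17B7, the 3-keto reductase that acts after MSMO1 and NSDHL in C4 demethylation, had 21.5, 19.6 and 21.2 CPM against 16.3, 16.0 and 15.9 CPM. The ApoD overexpression libraries were nearly equal, and the log2 fold change was −0.37 ± 0.11 (SE, edgeR adjusted p = 0.0132). It no longer passed without control replicate 3 (adjusted p = 0.0533) or ApoD overexpression replicate 3 (0.0695), and 2 named pseudogenes in GENCODE 29 can share its reads. NSDHL, which removes the C4 carboxyl group, had 29.5, 23.0 and 22.0 CPM in controls and 30.6, 29.9 and 32.2 CPM with ApoD overexpression. Its libraries did not overlap, but the log2 fold change of 0.31 ± 0.12 missed the threshold (edgeR adjusted p = 0.0539). DHCR7, the last reductase of the pathway, had 86.0, 63.4 and 65.7 CPM against 81.2, 89.1 and 91.0 CPM, with a log2 fold change of 0.28 ± 0.12 (edgeR adjusted p = 0.0699). EBP, the sterol isomerase, had 84.3, 64.9 and 69.3 CPM against 78.3, 93.0 and 79.1 CPM, with a log2 fold change of 0.20 ± 0.12 (edgeR adjusted p = 0.179). In all of NSDHL, DHCR7 and EBP control replicate 1 was the highest control.

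SC5D, the desaturase before DHCR7, had 22.8, 26.6 and 30.0 CPM against 24.6, 21.9 and 18.1 CPM, an overlap through control replicate 1. Its log2 fold change of −0.30 ± 0.14 did not pass (SE, edgeR adjusted p = 0.0958). CYP51A1, the lanosterol demethylase, had 77.9 to 96.4 CPM in controls and 92.5 to 100.1 CPM with ApoD overexpression, and a log2 fold change of 0.16 ± 0.10 (edgeR adjusted p = 0.193). Another gene model on its strand, AC000120.2, covers 79.4% of the CYP51A1 exonic bases in GENCODE 29, where CYP51A1 also has 3 named pseudogenes. Summed per gene length, the 9 late enzymes had 182.8 to 213.9 FPKM in controls and 196.0 to 204.5 with ApoD overexpression. The squalene and lanosterol enzymes had 95.9 to 109.5 and 66.6 to 72.9 FPKM. The late sum overlapped between the groups, and the squalene and lanosterol sum did not. These FPKM sums follow library totals and leave out the scaling factors used for CPM. Those factors were 1.02 to 1.07 in controls and 0.946 to 0.975 with ApoD overexpression. Dividing by them would raise the ApoD overexpression sums and lower the control sums. Sums scaled in that way were not computed. FDFT1 made up most of the squalene and lanosterol sum, at 69.8 of a mean of 104.9 FPKM in controls and 38.9 of 69.4 with ApoD overexpression. In the same sum LSS had 13.8 and 14.9 FPKM. EBP was the largest part of the late sum, at 67.3 and 71.1 FPKM.

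Several of these calls changed when control replicate 1 was left out, and others changed when another library was. For 19 of the 32 genes control replicate 1 was the control nearest to the ApoD overexpression mean, and that share was not computed for all genes. Over all but the lowest-count genes it also differed less from the ApoD overexpression libraries than the other controls did. Its chi-square per degree of freedom against them was 102 to 150, and that of control replicates 2 and 3 was 167 to 223. Without control replicate 1 the test covered 15007 genes, of which 3712 rose and 3807 fell. With all 6 libraries 3539 and 3601 of 14629 did. Of the 32 sterol genes 8 rose without it in place of 3, and 15 fell as before. The added rises were NSDHL (0.46, adjusted p = 0.00403), LSS (0.44), DHCR7 (0.44, adjusted p = 0.00324), EBP (0.32, adjusted p = 0.0316) and MBTPS1. SC5D then fell, with a log2 fold change of −0.39 (adjusted p = 0.0293), while SQLE no longer passed.

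**Figure D4:**
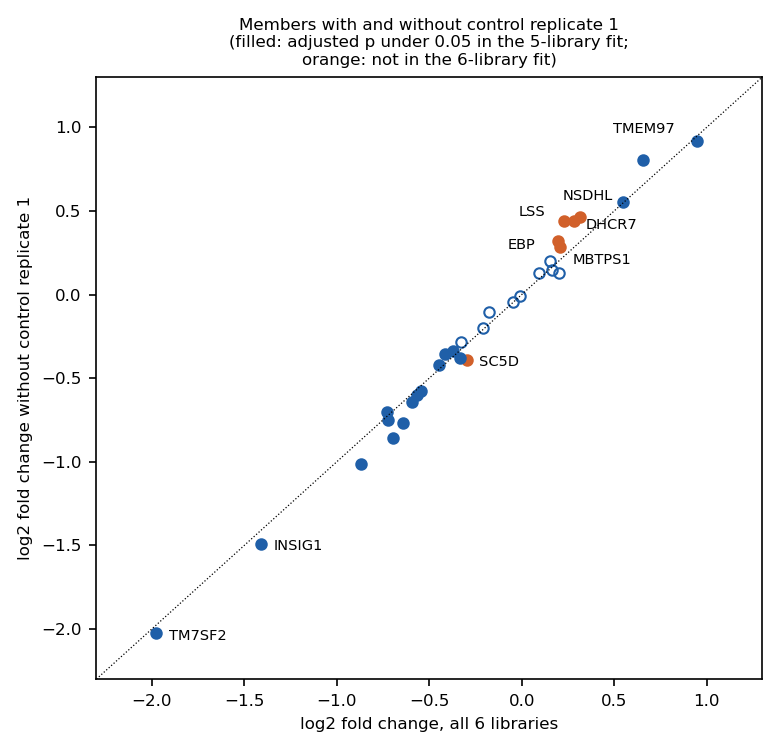
Log2 fold changes of the 32 genes from all 6 libraries (horizontal) and without control replicate 1 (vertical), with the line of equal values dotted. LSS, NSDHL, DHCR7, EBP, MBTPS1 and SC5D, in orange, do not pass with all 6 libraries but pass in this 5-library fit, and these genes lie farther from 0 there.

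Of the 5 genes for sterol binding, transport and esters 2 fell and 1 rose, beside 24.6% lower and 24.2% higher among all genes. TMEM97, an endoplasmic reticulum protein that binds sterols and limits the lysosomal cholesterol exporter NPC1, had 42.6, 44.5 and 47.8 CPM in controls and 80.5, 90.8 and 88.9 CPM with ApoD overexpression. The groups were far apart, at 45.0 ± 2.61 and 86.7 ± 5.47 CPM (SD, n = 3). Its log2 fold change of 0.95 ± 0.09 (SE, edgeR adjusted p = 1.38e-05) was the highest of the 32 genes. In GENCODE 29 it has 2 named pseudogenes, and IFT20 on the other strand covers 11.9% of its exonic bases. TMEM97 is itself known as a sterol-responsive gene, so its 250 bases are shown for comparison with the genes that fell (chr17:28318950-28319199, plus strand, GRCh38.p14, RefSeq). Its 3 matches, in capitals, are all CCAAT.
TMEM97: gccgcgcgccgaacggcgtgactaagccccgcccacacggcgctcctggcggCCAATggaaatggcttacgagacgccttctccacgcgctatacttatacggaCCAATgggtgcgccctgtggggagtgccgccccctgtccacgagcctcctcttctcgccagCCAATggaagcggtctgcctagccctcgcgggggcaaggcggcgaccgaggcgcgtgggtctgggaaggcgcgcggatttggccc

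STARD4, a cytosolic sterol carrier, had 47.0, 61.3 and 77.1 CPM in controls and 45.8, 32.3 and 36.1 CPM with ApoD overexpression. Control replicate 1 and ApoD overexpression replicate 1 were almost equal, while the other controls lay well above. The log2 fold change of STARD4 was −0.70 ± 0.17 (SE, edgeR adjusted p = 0.00515). NPC2, the lysosomal protein that hands cholesterol to NPC1, had 116, 133 and 126 CPM against 97.2, 107 and 93.0 CPM. For NPC2 the log2 fold change was −0.34 ± 0.09 (edgeR adjusted p = 0.0109). It no longer passed without control replicate 2 (adjusted p = 0.0672), control replicate 3 (0.0511), ApoD overexpression replicate 1 (0.0563) or ApoD overexpression replicate 3 (0.0946), and its change was −0.51 with the abundance trend removed.

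NPC1, the exporter of the lysosomal membrane, had 57.1 to 63.2 CPM in controls and 62.6 to 71.9 CPM with ApoD overexpression, and the groups overlapped. SOAT1, which esterifies cholesterol for storage, had 60.6 to 65.5 and 65.7 to 70.1 CPM. Its libraries did not overlap, but the log2 fold change was only 0.10 ± 0.09 (SE, edgeR adjusted p = 0.394) and turned to −0.02 with library totals. NPC1 had a log2 fold change of 0.15 ± 0.09 (edgeR adjusted p = 0.201).

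Genes that use or govern the same pathway were read from further lists, beside the shares of 24.6% lower and 24.2% higher among all tested genes. Of 13 genes of the isoprenoid branch and protein prenylation 9 rose and 0 fell, with a median log2 fold change of 0.44. PDSS1, which builds the side chain of ubiquinone, rose from 4.80 ± 1.12 to 14.1 ± 0.494 CPM (SD, n = 3), with a log2 fold change of 1.55 ± 0.18 (SE, edgeR adjusted p = 3.44e-05). ZMPSTE24, the protease that trims farnesylated prelamin A, rose from 40.5 ± 3.86 to 87.2 ± 3.77 CPM (n = 3). RABGGTB, a subunit of the enzyme that geranylgeranylates Rab proteins, and COQ2, which joins the ubiquinone chain to its ring, both rose by 0.55 on the log2 scale.

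Of 13 genes for sterol-regulated degradation at the endoplasmic reticulum and SREBP turnover 8 rose and 1 fell, with a median of 0.28. UFD1 and FAF2, which work with the segregase VCP to pull proteins out of the membrane, rose by 0.66 ± 0.15 and 0.50 ± 0.11 (SE), and VCP by 0.55 ± 0.13. PAQR3, which tethers SCAP and SREBP at the Golgi, rose by 0.58 ± 0.12 (edgeR adjusted p = 0.00221). The gene that fell was the ubiquitin ligase MARCHF6, named after its value was seen, from 392 ± 11.6 to 306 ± 23.0 CPM (n = 3).

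Of 19 tested genes for sterol uptake and intracellular transport 8 fell and 2 rose, with a median of −0.13. LRP1, a large endocytic receptor of the lipoprotein receptor family, fell from 290, 395 and 326 CPM to 138, 111 and 121 CPM, with a log2 fold change of −1.45 ± 0.12 (SE, edgeR adjusted p = 5.42e-06). The low-level genes VLDLR and GRAMD1C, a lipoprotein receptor and a sterol transfer protein, fell from 2.95 ± 1.27 to 0.591 ± 0.328 CPM and from 5.77 ± 1.06 to 1.59 ± 0.396 CPM (n = 3). The genes that rose were SCARB1, the receptor for high density lipoprotein, and CAV1, the caveolar coat protein, both named after their values were seen. SCARB1 went from 245 ± 19.5 to 379 ± 24.0 CPM and CAV1 from 812 ± 92.6 to 1324 ± 65.9 CPM (n = 3).

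**Figure D5:**
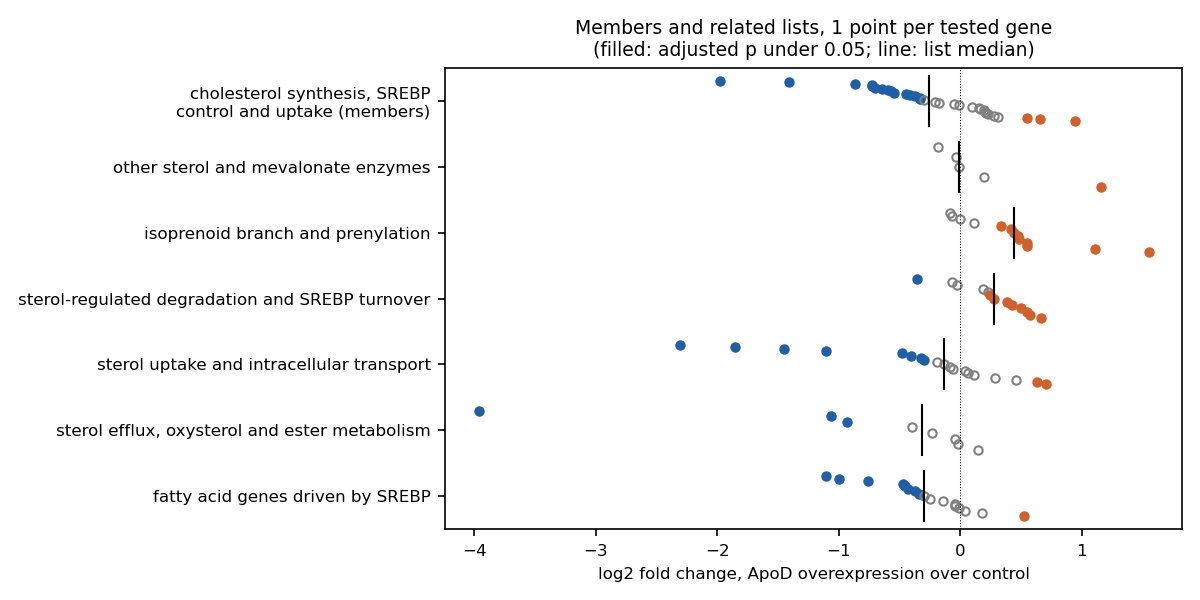
Log2 fold change (ApoD overexpression over control) of each tested gene in the 32 members and 6 related lists, filled where the adjusted p is under 0.05, with the list median as a line. The isoprenoid and degradation lists lie mostly right of 0, and the members and the uptake, efflux and fatty acid lists mostly left of it.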

How the data were processed

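Read counts per gene symbol in 6 libraries, and FPKM for those genes, were deposited by the authors, per the file headers. A SMARTER mRNA-Seq kit was used, per the labels' protocols. Aligner, counting program, strand setting and build: not given in the sources used here. All 108650 FPKM values above 0 equalled the count divided by the column total and 1 gene length, within a relative tolerance of 1e-06, so FPKM served for levels per length and as an alternative unit.

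The main test was edgeR's quasi-likelihood test (version 4.0.16, R 4.3.3) on the deposited counts, with TMM scaling and filterByExpr at a minimum count of 10, which kept 14629 of 21676 genes. Tests were two-sided, with Benjamini-Hochberg adjustment over all tested genes and a threshold of 0.05. CPM are counts per 1000000 of the TMM-scaled library. The SE of a log2 fold change came from its F statistic. The procedure was tested on simulated data. Alternatives used DESeq2 1.42.0 and limma 3.58.1 on log2(FPKM + 1) and log2(FPKM + 0.1), which understate the change of low genes. The members and gene lists were chosen with earlier results of these data known. All 32 members were named, and of each other list up to 4 genes past the threshold by size of change; some genes of the lists are not reported here.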

Additional observations from a re-analysis of the deposited data

How the results depend on the processing

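Of the 18 changed genes 13 passed in all 15 alternative fits (10 falls and 3 rises), and none of the 18 reversed. The exceptions were MVD, SQLE, HSD17B7 and NPC2, lost with a library left out, and STARD4, lost on unfiltered log2(FPKM + 1) (adjusted p = 0.0551). Of the 14 others 7 passed in at least 1 alternative. The count of sterol genes that fell was 12 to 16 with 1 library left out, and of those that rose 3 to 8. Without a low-count filter 5 rose. Of all genes 2690 to 3712 rose and 2764 to 3807 fell with 1 library left out, and 2317 rose on unfiltered log2(FPKM + 1). With log2(FPKM + 1) TM7SF2 had a log2 fold change of −1.15. Numbers shared by control and ApoD overexpression libraries did not mark pairs: the correlations of their deviations were −0.18, −0.03 and −0.10, and no library correlated best with its own number. With the replicate number as a block 15 sterol genes fell and 3 rose, and of all genes 3260 and 3088. LCAT had a log2 fold change of −1.13 with the block (adjusted p = 0.0601). The cause of these shifts was not tested. Counts of 24 to 40 for ACAT2, and of 26 to 49 for TM7SF2 with ApoD overexpression, limit their precision most.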

Other observations

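Of 17 genes listed as SREBP targets, most but not all of them in fatty acid metabolism, 8 fell and 1 rose. The shares among all tested genes were 24.6% and 24.2%. Their median log2 fold change was −0.30, beside −0.02 for all tested genes. ACSS2, which makes acetyl-CoA from acetate, had 64.3, 83.2 and 92.9 CPM in controls and 40.9, 36.5 and 34.4 CPM with ApoD overexpression. Its log2 fold change was −1.10 ± 0.13 (SE, edgeR adjusted p = 4.67e-05). PNPLA3, a lipid droplet hydrolase, fell by 0.997 ± 0.211 on the log2 scale, and the desaturase SCD by 0.76 ± 0.09. ACLY, which makes cytosolic acetyl-CoA from citrate, rose from 337, 266 and 265 CPM to 394, 410 and 443 CPM. The acetyl-CoA enzymes ACSS2 and ACLY changed in opposite directions.

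Of 8 tested genes for sterol efflux, oxysterols and sterol esters 3 fell and 0 rose, beside 24.6% and 24.2% of all tested genes. SULT2B1, the cholesterol sulfotransferase of squamous epithelium, was counted 73, 111 and 146 times in the controls against 6, 11 and 2 times. SULT2B1 had a log2 fold change of −3.96 ± 0.51 (SE, edgeR adjusted p = 7.8e-05). ABCG1, a sterol exporter, had 9.97, 16.0 and 19.998 CPM against 9.45, 7.74 and 6.84 CPM, and a log2 fold change of −0.94 ± 0.22 (edgeR adjusted p = 0.00452). Control replicate 1 again lay beside ApoD overexpression replicate 1. LCAT, the plasma cholesterol esterifying enzyme, just passed, with a log2 fold change of −1.07 ± 0.41 (edgeR adjusted p = 0.0461), and no longer passed in 6 of 13 alternatives, among them without control replicate 2 (−0.93, adjusted p = 0.154) or ApoD overexpression replicate 2 (−0.76, adjusted p = 0.119).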
